A study of Drosophila melanogaster with 7 samples.

Results

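Myo81F (locus tag Dmel_CG45784), named for the myosin family of actin-based motor proteins, is a giant gene of the pericentromeric heterochromatin of chromosome arm 3R in Drosophila melanogaster. In the RefSeq gene table it spans 3R 567076 to 2532932 (dm6), or 1965857 bp. It was the longest of the 83 protein-coding genes of the main arms with a span of at least 100 kb, and the next, its neighbour Pzl, had 36.1% of its length. The table gives the gene 1 transcript and merges 10 former locus tags in it. It gives neither exons nor strand, so exonic and intronic positions are not separated here, and the gene start means its lower coordinate. Replication forks were called on single DNA molecules by Nanopore sequencing of analogue-labelled DNA, and a fork belongs to the gene when the midpoint of its track lies in this span. That rule gave 145 of the 30573 forks that the 5 untreated pulse libraries hold on the main arms. It also gave 138 EdU segments, 137 BrdU segments, 15 origins and 10 terminations. The gradient library added 23 of its 1519 origin calls. The gene had been proposed for description with its counts of calls known, so it was chosen by its counts of fork and origin calls, and these counts and the densities made from them are given with no test.

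All libraries described here came from S2 cells, a line derived from Drosophila embryos, with no treatment other than labelling. In the pulse libraries the cells took up EdU and then BrdU, thymidine analogues that the sequencing can tell apart, at 10 µM each, followed by 20 min in 50 µM thymidine. A control library, sequenced on a MinION, and replicates 1 and 2, sequenced on a PromethION, were labelled for 7 min with EdU and 15 min with BrdU. Replicates 3 and 4, also sequenced on a PromethION, were labelled for 3 and 6 min. Replicates 1 and 2 are called the long-pulse replicates here, and replicates 3 and 4 the short-pulse replicates. In the gradient library the BrdU dose rose by 0.5 µM at intervals of 2.5 min, reached 12 µM over 1 hr, and a final 30 min followed. Each pulse library combined flasks labelled together. The labels do not say whether replicates came from separate cultures, so a p-value measures the spread between these libraries, which may be technical. The labels assign the control, both long-pulse replicates and both short-pulse replicates to 3 separate batches, so pulse scheme and batch cannot be told apart.

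A replication fork copies DNA in 1 direction away from the origin where it started, and replication of a stretch ends where forks from neighbouring origins meet. In this labelling a moving fork leaves an EdU segment that is followed, in the direction of travel, by a BrdU segment. Origins lie between diverging forks and terminations between converging forks. Pericentromeric heterochromatin is rich in repeats, is usually copied late in S phase, and holds genes that, like Myo81F, extend over very long stretches of such DNA. Arm 3R is numbered from its centromere outward, so a leftward fork in the gene moves toward the centromere.

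The forks lay along the whole gene. The outermost ones inside it had midpoints 24.8 kb from its lower edge and 51.5 kb from its upper edge. The nearest forks outside lay 30.0 kb below it and 16.5 kb above it. The 145 forks were called on 120 reads, whose mapped stretches covered 86.9% of the span, and 0 of these reads carried a fork mapped elsewhere. The longest stretch without a fork midpoint was 89.0 kb, from 1605678 to 1694712, and the next was 51.0 kb. By library the gene held 9 forks in the control, 37 and 31 in the long-pulse replicates 1 and 2, and 39 and 29 in the short-pulse replicates 3 and 4. The control therefore contributes few forks to every value that follows.

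**Figure D1:**
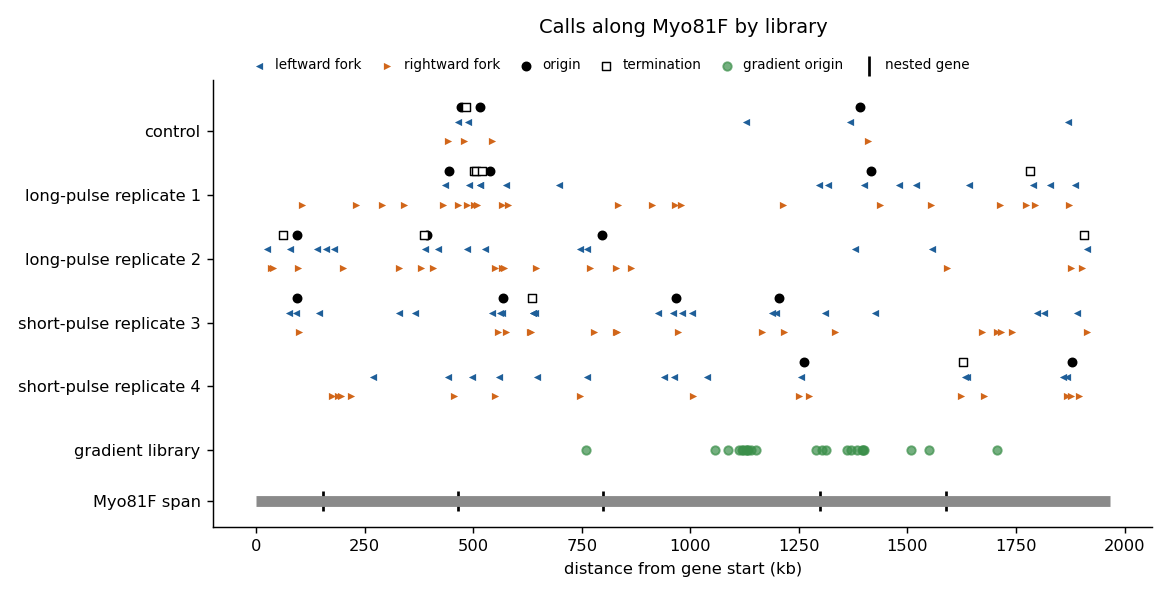
Position of every call in Myo81F, with distance from the gene start in kb on the horizontal axis and 1 row per library. Triangles are fork midpoints by direction, circles origins, open squares terminations, green circles gradient origins and ticks the 5 nested genes. The 145 forks reach from end to end, whereas the 23 gradient origins begin 760 kb into the gene.

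Forks were sparser in the gene than on 3R beyond 4 Mb in every library. Over all forks the gene held 73.8 per Mb. The remainder of the first 4 Mb of 3R held 88.0 and 3R beyond 4 Mb held 266. The density of the gene over that of the remainder was 1.33 in the control and 0.751 and 0.517 in the long-pulse replicates 1 and 2. In the short-pulse replicates 3 and 4 it was 1.19 and 1.20, so this order differed between libraries. Over all forks the gene was at 27.7% of the density of the distal arm. This gap differed in size between libraries. The density in the gene, as a percentage of that beyond 4 Mb in the same library, was 29.0% in the control, 20.7% and 14.2% in the long-pulse replicates 1 and 2, and 78.2% and 64.7% in the short-pulse replicates 3 and 4. Both short-pulse libraries lay above the 3 libraries with longer pulses, without overlap.

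The same order held for the share of a library's forks that fell in the gene. That share was 0.490% in the control (exact 95% interval 0.224 to 0.928%), 0.360% in the long-pulse replicate 1 (0.254 to 0.496%) and 0.243% in replicate 2 (0.165 to 0.345%). It was 1.30% in the short-pulse replicate 3 (0.926 to 1.77%) and 1.07% in replicate 4 (0.716 to 1.53%). The intervals of the 2 short-pulse libraries lay above those of both long-pulse replicates and overlapped that of the control. Short-pulse libraries supplied 68 of the 145 forks of the gene, or 46.9% (38.6 to 55.4%). They supplied 33.0% (26.1 to 40.4%) of the forks in the remainder of the first 4 Mb and 18.1% (17.2 to 19.0%) of those beyond it. Intervals of this kind cover counting error only, and forks on 1 read are not independent. Total coverage of the gene by all reads was not analysed here, so a density of forks cannot be set against the amount of DNA sequenced.

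**Figure D2:**
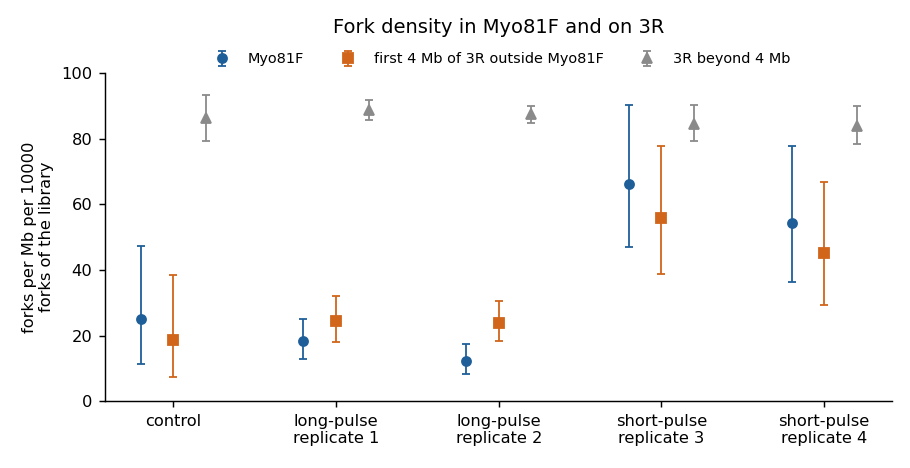
Forks per Mb per 10000 forks of the library (vertical axis) in Myo81F, in the remainder of the first 4 Mb of 3R and in 3R beyond 4 Mb, for each library. Points are values and bars exact 95% binomial intervals. Myo81F stands far below the distal arm in the control and the long-pulse replicates, and at 66.2 and 54.3 in the short-pulse replicates it comes nearer to it.

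The version of the calling software moved with these counts. DNAscent 4.0.3 made all forks of the short-pulse replicates and a part of those of the long-pulse replicates, while 4.0.1 made the rest and all of the control. Version 4.0.3 made 58.6% of the forks of the gene and 27.2% of all forks. Within the long-pulse replicate 1, the gene held 0.786% of the forks called by 4.0.3 (0.393 to 1.40%) and 0.293% of those called by 4.0.1 (0.191 to 0.429%). Within replicate 2 the corresponding shares were 0.503% (0.185 to 1.09%) and 0.216% (0.140 to 0.319%). The share was higher with 4.0.3 in both, and the intervals of the versions overlapped in both. In the remainder of the first 4 Mb the shares for 4.0.3 and 4.0.1 were 0.357% and 0.518% in replicate 1 and 0.503% and 0.485% in replicate 2. The part of the version in the difference between schemes was not tested.

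Among long genes, Myo81F was at the low end in the longer pulses and near the middle in the shorter ones. In forks per Mb, scaled to a library of 10000 forks, it had 24.9 in the control, 18.3 and 12.4 in the long-pulse replicates, and 66.2 and 54.3 in the short-pulse replicates. The medians of the 83 long genes were 49.7, 63.3, 70.5, 62.8 and 60.2 in the same order. Counted from the lowest, Myo81F ranked 20 in the control, 6 and 2 in the long-pulse replicates, and 45 and 38 in the short-pulse replicates. Over all forks it ranked 2, and the gene below it was Pzl.

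Pzl, which codes for a Piezo-like membrane protein, also had the pattern most like that of Myo81F over the 5 libraries. It begins 21.2 kb beyond the upper end of Myo81F. Its values were 15.4 in the control, 10.97 and 11.1 in the long-pulse replicates and 70.5 and 62.3 in the short-pulse replicates, and their mean absolute difference from those of Myo81F was 6.11. The 4 genes that followed had larger differences. They were Parp1, the gene of a poly(ADP-ribose) polymerase and like Pzl in the proximal part of 3R, at 19.6, Con (connectin, a cell adhesion protein) at 20.0, CG43867 at 21.6 and kek5, which codes for a leucine-rich repeat transmembrane protein, at 22.2. These 4 held 18, 18, 12 and 9 forks, against 47 in Pzl and 145 in Myo81F. Counting error is larger at such counts, and its part in this ranking was not tested. Over all forks, the other longest genes had 235 (lovit), 167 (CG17684), 150 (DIP-lambda) and 140 (kirre) forks per Mb, against 73.8 in Myo81F, but the order differed between libraries. On the scaled measure kirre had 25.4 and 37.4 in the short-pulse replicates 3 and 4, lovit 33.9 in replicate 4 and DIP-lambda 14.4 in the control, each below Myo81F in that library. As in Myo81F, the short-pulse values were above the others in CG17684, at 118 and 112 against 27.5 to 41.8, and in DIP-lambda, at 123 and 146 against 14.4 to 37.3. Their mean absolute differences from Myo81F were nonetheless 32.8 and 37.7.

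Leftward and rightward forks were about equally frequent in Myo81F. It held 70 leftward and 75 rightward forks, a leftward share of 48.3% (Wilson 95% interval 40.3 to 56.3%), against 51.3% on 3R outside the gene. The leftward share was 55.6% in the control, 40.5% and 45.2% in the long-pulse replicates, and 56.4% and 48.3% in the short-pulse replicates. Within libraries the gene minus the rest of 3R came to -2.05 ± 7.43 percentage points (mean ± SD, n = 5), with 3 of 5 libraries in that direction. The exact two-sided sign-flip test over libraries, whose smallest possible p is 0.0625, gave p = 0.625, and 0.75 after Benjamini-Hochberg adjustment over 9 measures. The remainder of the first 4 Mb had a leftward share of 58.7% (51.3 to 65.6%). The gene minus that stretch was -10.98 percentage points on average, negative in 4 of 5 libraries, with p = 0.125 in the exact sign-flip test. Leaving out the long-pulse replicate 1 brought the difference from the rest of 3R to 0.0074 percentage points.

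In 10 equal bins of 5 to 34 forks each, the leftward share ran from 27.3% to 66.7%, and the Wilson interval of 0 of the 10 bins excluded 50%. Below the midpoint of the gene 41 of 89 forks were leftward (46.1%, 36.1 to 56.4%) and above it 29 of 56 (51.8%, 39.0 to 64.3%). Libraries did not move together: the leftward share was lower below the midpoint in the control and in both long-pulse replicates, and higher there in both short-pulse replicates, on 4 to 25 forks each and with no test. With 20 bins, 2 of the 17 bins that held at least 5 forks excluded 50%, and both held rightward forks only. They lay 786 to 885 kb from the gene start, with 5 forks, and 1671 to 1769 kb from it, with 6 forks.

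**Figure D3:**
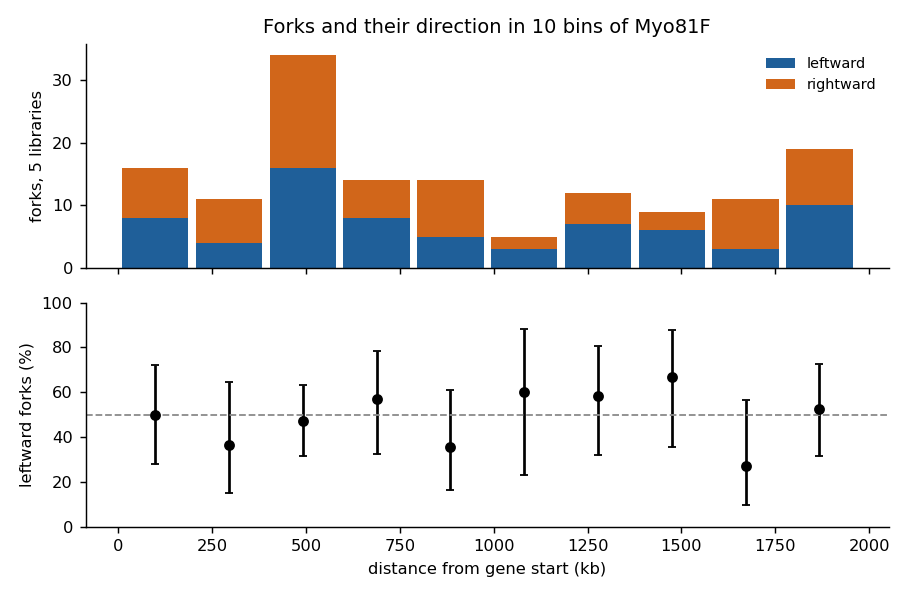
Forks of the 5 libraries in 10 equal bins of Myo81F, by distance from the gene start in kb. The upper panel counts leftward and rightward forks and the lower panel gives the leftward percentage with its Wilson 95% interval. The third bin holds 34 forks, and the interval of every bin includes the dashed line at 50%.

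The third of these bins, from 960248 to 1156833, held more fork, origin and termination calls of the pulse libraries than any other bin. It had 34 forks (23.4% of those in the gene) on 25 reads, and 6 of the 15 origins and 4 of the 10 terminations. Its forks came from 5 of 5 libraries, 5 from the control, 12 and 7 from the long-pulse replicates and 5 from each short-pulse replicate. Coverage by all reads was not analysed here, so the count of forks in a bin is not a density per read. The sixth bin, from 1550005 to 1746590, had the fewest forks, 5, and no origin or termination.

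The gene table has 5 short genes inside Myo81F, namely the pseudogenes CR41571, CR12798 and CR40182 and the long non-coding RNA genes lncRNA:CR46123 and lncRNA:CR46122, of 184 to 901 bp. An origin midpoint fell 2.29 kb from lncRNA:CR46123, within a gap between diverging forks of 50.6 kb, and another fell 8.45 kb from CR12798. The stalled BrdU end of 1 fork lay 9.05 kb from lncRNA:CR46122. Terminations lay within 10 kb of 0 nested genes.

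Fork tracks, which hold the EdU segment, the BrdU segment and what lies between them, had median lengths in the gene of 14.1 kb in the control library, 18.4 and 17.3 kb for the long-pulse replicates, and 10.5 and 10.98 kb in the short-pulse replicates. On 3R outside the gene the medians were 14.1, 13.7, 14.9, 8.41 and 8.88 kb in the same order. Tracks were thus longer in the gene in 4 of 5 libraries and level with the rest of 3R in the control. The mean difference on the log2 scale was 0.25 ± 0.16 (SD, n = 5), or 1.19-fold. The exact sign-flip test gave p = 0.125, and 0.562 after adjustment over the 9 measures. Its smallest possible p is 0.0625 with 5 libraries, so it could not decide whether tracks differ. Against the remainder of the first 4 Mb of 3R the mean log2 difference was smaller, at 0.12. It was positive in 4 of 5 libraries, with p = 0.3125 in the exact sign-flip test. Within a library the tracks of the gene spread widely, from 4.07 to 38.6 kb in the long-pulse replicate 1 and from 3.79 to 27.5 kb in the short-pulse replicate 3.

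No track can be longer than the read that holds it. Median mapped lengths of the reads behind its forks were 74.7 kb in the control library, 59.1 and 72.4 kb for the long-pulse replicates, and 25.1 and 30.2 kb in the short-pulse replicates. Outside the gene they were 59.1, 56.5, 58.6, 29.4 and 35.7 kb. The reads of the gene were longer than those outside in the control and both long-pulse replicates and shorter in both short-pulse replicates. The part of read length in the track lengths was not tested. The log2 difference of read length was 0.05 ± 0.28 (SD, n = 5), with p = 0.688 in the exact sign-flip test. Complete forks, which keep at least 5 kb from both read ends and over 1 kb from every origin or termination on the read, numbered 30 in the gene and 0 in the control. Their median track was 19.5 kb against 14.8 kb outside in the long-pulse replicate 1, 17.9 against 15.8 kb in replicate 2, 9.06 against 12.0 kb in the short-pulse replicate 3, and 10.98 against 8.80 kb in replicate 4. The gene was higher in 3 of these 4 libraries, on 6 to 10 complete forks each, and the log2 difference of 0.12 had p = 0.625 in the exact sign-flip test.

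**Figure D4:**
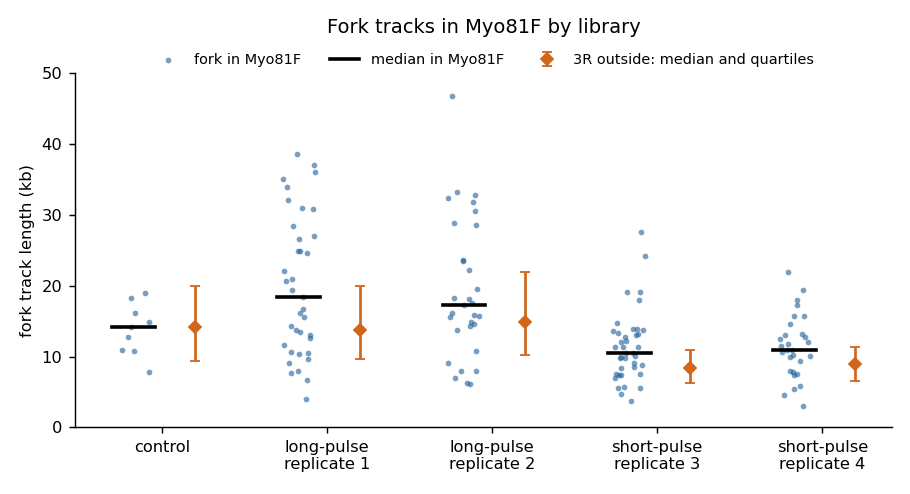
Fork track length in kb (vertical axis) by library. Each point is a fork in Myo81F, the black bar is their median, and the orange diamond with bars is the median with quartiles of forks on 3R outside the gene. Medians in the gene exceed those outside in every library but the control.

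Neither analogue segment differed from the rest of 3R in the same direction in every library. Median EdU segments were 5.92 kb in the control library, 6.16 and 5.19 kb for the long-pulse replicates, and 3.67 and 4.34 kb in the short-pulse replicates. The log2 difference from 3R outside was 0.10 ± 0.22 (SD, n = 5; p = 0.375 in the exact sign-flip test, adjusted 0.75). Median BrdU segments were 4.93 kb in the control library, 7.11 and 8.70 kb for the long-pulse replicates, and 4.92 and 3.46 kb in the short-pulse replicates. They were longer than outside in 3 of 5 libraries (log2 difference 0.14 ± 0.43, SD, n = 5; p = 0.5 in the exact sign-flip test, adjusted 0.75). The BrdU segment per minute over the EdU segment per minute, as a median log2 ratio, was lower in the gene by 0.12 on average, with an SD of 0.76 over 5 libraries and p = 0.75 in the same exact test. The control lay at -1.92 and the long-pulse replicate 2 at -0.17 in the gene, the extremes of the 5 libraries.

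Within the gene, tracks of the long-pulse replicates averaged 17.9 ± 0.81 kb (SD of 2 library medians) and those of the short-pulse replicates 10.8 ± 0.32 kb. The groups did not overlap, and the exact permutation test of 2 against 2 gave p = 0.333, the smallest it allows. Per minute of labelling the order turned: 0.812 ± 0.037 kb against 1.20 ± 0.036 kb (SD, n = 2 each). The short-pulse value was 1.47 times the long-pulse one. The same order held on 3R outside the gene, with 0.622 and 0.677 kb per min in the long-pulse and 0.935 and 0.987 kb per min in the short-pulse replicates.

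A track counts as leading-strand when the fork moves rightward on a forward read or leftward on a reverse one, and 79 of the 145 forks of the gene (54.5%, Wilson interval 46.4 to 62.4%) were of this kind, against 63.2% (62.1 to 64.3%) on 3R outside. The leading share in the gene was 44.4% in the control, 54.1% and 41.9% in the long-pulse replicates, and 64.1% and 58.6% in the short-pulse replicates. Outside it was 60.1, 67.1, 60.3, 69.0 and 57.3%. The gene was lower in 4 of 5 libraries, by 10.1 percentage points on average (SD 8.14, n = 5), with p = 0.125 in the exact sign-flip test and 0.562 after adjustment. With a smallest possible p of 0.0625, this test could not separate a lower leading share from the spread between libraries.

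Origin calls per fork were higher in the gene than on the rest of 3R in 5 of 5 libraries, with no test. There were 15 origins for 145 forks, 10.3 per 100 forks (exact 95% interval 5.91 to 16.5), against 379 for 7660 outside, 4.95 per 100 (4.47 to 5.46). The remainder of the first 4 Mb had 5.03 (2.32 to 9.33). By library the gene had 33.3 origins per 100 forks in the control, 8.11 and 9.68 in the long-pulse replicates, and 10.3 and 6.90 in the short-pulse replicates. On 3R outside the rates were 5.54, 5.02, 5.36, 2.82 and 4.66. In the remainder of the first 4 Mb they were 0, 9.80, 3.23, 2.94 and 4 in the same order, on 0 to 5 origins each. Against that stretch the gene was thus lower in the long-pulse replicate 1 and higher in the other libraries. Each library rests on 2 to 4 origins in the gene, too few for a test over libraries, and the intervals of both long-pulse replicates and of the short-pulse replicate 4 include their rates outside. The lower bounds of the control and of the short-pulse replicate 3 lie above theirs, at 7.49 and 2.87. Such counts chose the gene, and calls on 1 read are not independent, so none of these bounds is a test. In the control, 3 origins stood beside 9 forks, and 2 of these origins were on 1 read. Without the control the rate in the gene was 8.82 per 100 forks. Of origin calls up to 5 kb wide, all 8 of them of zero width, there were 5.52 per 100 forks in the gene. On 3R outside 164 of the 379 origins had zero width, so 5.52 is not to be set against the 4.95 for all widths.

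**Figure D5:**
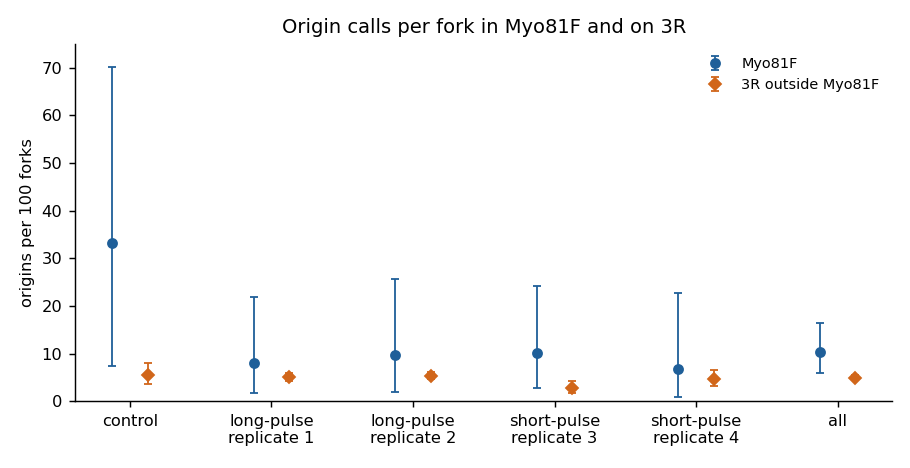
Origin calls per 100 forks (vertical axis) in Myo81F and on 3R outside it, by library and for all 5 together. Points are rates and bars exact 95% binomial intervals. The point of the gene is the higher one in every library, at 10.3 against 4.95 over all, with wide intervals on 2 to 4 origins per library.

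The origins spread from 661345 to 2446329. In 8 of the 15 the diverging tracks abutted without a gap, and in 7 they were separated by a gap of 5.51 to 50.6 kb, which bounds the origin. The sister EdU segments of each abutting pair were equal in length to within a base. The point given for these 8 is thus the middle of a joined EdU stretch. Calls of zero width made up 53.3% of origins in the gene (26.6 to 78.7%) and 43.3% (38.2 to 48.4%) on 3R outside, and the intervals overlapped. A pair of zero-width origins lay 19 bp apart, at 661345 in the short-pulse replicate 3 and at 661364 in the long-pulse replicate 2, on separate reads from separate libraries. Their sister EdU segments were 1086 and 1087 bp in replicate 3, and 614 and 615 bp in replicate 2. The 19 bp are thus the distance between the middles of these EdU stretches. The next closest pair from 2 libraries was 24.6 kb apart, at 1081754 in the control and 1106352 in the long-pulse replicate 1. Both of those were gapped calls, whose intervals overlapped. Of the 15 origins, 12 were on reverse reads, as were 55.2% of the forks of the gene.

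Sister forks of an origin often differed in length. The longer sister track was 1.09 to 5.37 times the shorter one over the 15 origins, with a median of 1.58, and the leftward sister was the longer in 6 of 15. The most unequal pair was called at 661364 in the long-pulse replicate 2, with 32.7 kb to the left and 6.10 kb to the right. Its leftward track ended at the zero-width termination at 628640, where both BrdU segments were 30304 bp. The most equal pair, at 1533357 in the short-pulse replicate 3, had 13.9 and 12.8 kb. A read can end before a fork does, so such ratios include cut tracks. Zero-width origins and terminations are placed at the middle of a joined stretch, and this placement also sets the lengths of the tracks beside them.

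The gene held 10 terminations, or 6.90 per 100 forks, against 6.08 on 3R outside. There were 1 in the control, 4 and 3 in the long-pulse replicates and 1 in each short-pulse replicate. In 9 of the 10 the converging tracks abutted without a gap, and in 1, in the long-pulse replicate 1, a gap of 74.7 kb centred on 1088404 remained between them. The BrdU segments of each abutting pair were equal in length to within a base, for example 30304 and 30304 bp at 628640. The point given is thus the middle of a joined BrdU stretch. Of the 10, 6 lay in the first 590 kb of the gene, where 8 of the 15 origins also lay. In that stretch 60 of the 145 forks had their BrdU end.

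Several reads recorded more than 1 fork. Of the 120 reads, 19 held at least 2 forks of the gene (15.8%, exact interval 9.81 to 23.6%), against 10.9% (10.1 to 11.6%) of the fork reads on 3R outside. At least 3 forks were found on 5 reads (4.17%, 1.37 to 9.46%), against 1.42% (1.16 to 1.74%) outside, all 5 from libraries with 7 and 15 min pulses. A read of 107 kb in the control held 4 forks, with origins at 1039808 and 1081754 and between them a termination at 1050790. The longest read, of 200 kb in the long-pulse replicate 1, held 3 forks of the gene, with an origin at 1012456 and the gapped termination at 1088404.

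Stall scores, by which the caller rates from 0 to 1 whether a fork paused or stalled at its BrdU end, were available for 50 of the 145 forks (34.5%), against 41.8% on 3R outside. The scored share in the gene was 22.2% in the control, 45.9% and 29.0% in the long-pulse replicates, and 30.8% and 34.5% in the short-pulse replicates. Outside it was 57.2, 43.1, 46.3, 10.3 and 40.3%. The differences ran both ways, from -35.0 to 20.4 percentage points, with p = 0.562 in the exact sign-flip test over 5 libraries.

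Of the 50 scored forks, 10 reached a score of 0.5 and are called stalled here (20.0%, exact interval 10.0 to 33.7%), against 21.9% (20.5 to 23.4%) outside. By library the stalled forks of the gene were 1 of 2 in the control, 1 of 17 and 1 of 9 in the long-pulse replicates, 2 of 12 in the short-pulse replicate 3 and 5 of 10 in replicate 4. Replicate 4 supplied 5 of the 10, and stalled forks were also frequent there outside the gene, at 44.8% of those scored. In the 4 libraries with at least 5 scored forks in the gene the difference was -4.19 ± 8.16 percentage points (SD, n = 4), with p = 0.375 in the exact sign-flip test, whose smallest p is 0.125 with 4 libraries. The differences ran both ways, from -12.5 to 5.22 points, and a test with that smallest p could not separate stalling in the gene from that on the rest of 3R.

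The 10 stalled ends lay between 609503 and 2470502. Of these, 6 were in the first 590 kb, at 609503, 707958, 749098, 761549, 1121926 and 1123226. Of all 50 scored forks, 22 (44.0%) had their BrdU end in that stretch. The last 2 of these positions were reached by a rightward and a leftward fork of the short-pulse replicate 4, on separate reads, that ended 1.30 kb apart. The highest scores were 0.918, for a leftward fork of the long-pulse replicate 1 ending at 1875061, and 0.901, for a leftward fork of the short-pulse replicate 3 ending at 1759836. Leading-strand tracks made up 7 of the 10 stalled forks and 54.5% of all forks of the gene, scored or not. Only scored forks can be called stalled, and the leading share of the 50 scored forks is not given here. These shares are thus not to be set against each other.

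The gradient library was labelled with a rising BrdU dose in place of paired pulses, and how its origins were called is not given in the sources used here. It placed 23 origins in the gene on 10 molecules, 1.51% of its origins (exact interval 0.962 to 2.26%). That interval treats origins as independent, though origins on the same molecule are not. In the pulse libraries 0.474% (0.400 to 0.558%) of the forks and 0.992% of the origins lay in the gene. A pair of molecules carried 6 origins each, 12 of the 23 in all. Counted by molecule, 10 lay in the gene and 1010 on the main arms outside it. The molecules held 2.30 origins each in the gene and 1.48 on the main arms outside it, and 4 of the 10 held at least 2, against 27.0% (24.3 to 29.9%) outside. Neighbouring origins on a molecule were 9.94 kb apart in the median of 13 spacings in the gene, and 9.48 kb outside.

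The gradient origins began far into the gene. The last gradient origin lay at 2273777, and the first at 1327394, 760 kb into the gene. The stretch below it, 38.7% of the gene, thus holds no gradient origin by definition. In it lay 71 of the 145 forks (49.0%) and 8 of the 15 pulse origins. Its boundary was set by the gradient origins themselves, so no limit is given for the absence of calls there. Origins on 1 molecule are not independent, and those of the gene came from 10 molecules. The deposited gradient origins give no read coordinates, so whether gradient reads covered that stretch was not tested. Both molecules with 6 origins lay further in, from 1678332 to 1718257 and from 1926743 to 1967869. The first of these lies in the sixth bin, where the pulse libraries had the fewest forks. Of the second, 4 origins fell inside the gapped origin interval of the control, from 1944033 to 1970080, and 1 of them, at 1961413, was within 5 kb of its midpoint.

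Over the whole series, the libraries held 1836 to 12745 forks on the main arms, and the reads behind them had medians of 29.4 to 60.0 kb. The libraries with short pulses were both the smaller and the shorter in reads among those sequenced on a PromethION. No read was shared between libraries. Precision in the gene is lowest in the control, the smallest of the 5 libraries.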

How the data were processed

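Genomic DNA of S2 cells was sequenced on Nanopore instruments. The submitters' processing notes name minimap2 2.24, SAMtools 1.10 and the build dm6. The caller was forkSense, a part of DNAscent, in version 4.0.1 or 4.0.3 per the file headers. A few origin and termination lists carry no header, and their versions are not given there. Coordinates, track lengths and segment lengths are in bp as the authors deposited them (other values). The stall score is the deposited score of the authors, and codes below 0 mark forks without one. The deposited fractions of analogue calls per segment were not used in any comparison.

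Members were chosen by midpoint in the RefSeq span (Release 6 plus ISO1 MT, the release of dm6). The gene, the lists and the tests were chosen with earlier results of these data known. Values were computed with Python 3.11.15, scipy 1.17.1, numpy 2.4.6, pandas 2.3.3 (figures with matplotlib 3.10.9). The library was the unit: each value of the gene was set against 3R outside it in the same library, for libraries with at least 5 forks (or scored forks) in the gene, and tested by an exact two-sided sign-flip test, adjusted by Benjamini-Hochberg over 9 measures. Medians entered as log2 ratios and shares as differences. The test was checked on simulated track lengths, with more forks per library than the gene holds. The simulated effect was either absent or larger than the track difference found here. That check does not show how the test performs at the counts of this gene. Shares have Wilson or exact 95% intervals, which cover counting error only.

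Named genes were those nested in the span near a call (within 10 kb), the neighbours, the 5 long genes most alike by mean absolute difference and the 5 longest others. The 2 bins of the finer division, the closest origins and the bins with most and fewest forks were singled out after their values were seen. So was the stretch below the first gradient origin. Alternatives were other comparison regions, complete forks, 1 fork per read, tracks wholly inside the span, long reads, pooled forks, other thresholds and bins, and each library left out. Single caller versions, and leaving out libraries for fork density, origins and terminations, were chosen after seeing the data. The HU library was not analysed here.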

Additional observations from a re-analysis of the deposited data

Results flagged for a closer look

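The control had 33.3 origins per 100 forks in Myo81F (3 origins, 9 forks), far above the 6.90 to 10.3 of the other 4 libraries. A gap of this kind is found by chance in about 1 of 20 groups.

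Reads behind the forks of the gene were longer than on the rest of 3R in both long-pulse replicates (log2 0.06 and 0.31) and shorter in both short-pulse replicates (-0.23 and -0.24). The groups differed by 0.417 on the log2 scale, and this difference was not tested.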

How the results depend on the processing

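Of 150 alternative values for 14 results, 128 kept direction and side of the test threshold or stayed within the error, 20 changed direction and 2 moved further. No test could pass, whatever the data. The smallest possible p, 0.0625 for the sign-flip test over 5 libraries and 0.333 for 2 libraries against 2, lay above the test threshold. The p-values of these tests ran from 0.0625 to 1, so a kept side shows no stability. Track length stayed longer in the gene (log2 0.05 to 0.36) and the leading share lower (-17.3 to -6.44 percentage points) under every alternative run. Track length had p = 0.0625 with 5 of 5 libraries in the exact sign-flip test against all main arms and with 1 fork per read. These were its lowest p-values. Against the first 4 Mb its log2 difference was 0.12, with p = 0.3125 in the exact sign-flip test, and over pooled forks it was 0.05. With 1 fork per read the leftward share turned to 3.89 percentage points, the ratio of BrdU to EdU rates to 0.057 (log2) and read length to -0.11 (log2). Among complete forks the EdU segment turned to -0.10, the ratio to 0.35 and the scored share to 9.67 points. On reads of 50 kb or more the scored share was 4.09 points. Pooling forks over libraries gave -0.079 for the EdU segment, -0.12 for the BrdU segment, 0.094 for the ratio and -0.34 for read length. Against the first 4 Mb, the BrdU segment was -0.14 and read length -0.13. Forks of DNAscent 4.0.3 alone, chosen after seeing the data, gave a stalled share 2.50 points higher in 2 libraries. Narrow origin calls numbered 5.52 per 100 forks in place of 10.3 for all widths, and 20 bins in place of 10 gave 2 bins that excluded 50% in place of 0. The mean share of a library's forks in the gene was 0.692%, 0.914% for forks of 4.0.3 and 0.333% for those of 4.0.1, the last a drop of over 1.5 times. The causes were not tested.

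Leaving out each library in turn gave -4.58 to 0.0074 points for the leftward share, -0.33 to 0.12 for the ratio, -13.8 to 0.044 points for the scored share and -0.023 to 0.12 for read length. The stalled share ran from -7.33 points without the short-pulse replicate 4 to -1.42 without the long-pulse replicate 1. The log2 BrdU segment difference ran from 0.019 without the short-pulse replicate 3 to 0.27 without the control, and that of the EdU segment from 0.027 without the short-pulse replicate 4 to 0.18 without the long-pulse replicate 2. No paired analysis was possible because number 1 is the only replicate number that groups share. The 9 forks of the control and the 29 to 39 of each other library limit every value.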

Other observations

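Termination calls per 100 forks, gene minus 3R outside, were positive in the control (4.68) and in the long-pulse replicates (5.26 and 3.06) and negative in the short-pulse replicates (-2.93 and -2.57). These rest on 1 to 4 terminations per library, and the difference between schemes was not tested.

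The forks of Myo81F lay closer to a read end than those elsewhere on 3R, with a median distance of 1.29 kb against 3.46 kb over all libraries. By library the distance in the gene was 1.99 kb in the control library, 4.75 and 0.607 kb for the long-pulse replicates, and 0.567 and 1.25 kb in the short-pulse replicates, against 6.16, 4.50, 3.88, 0.895 and 2.69 kb outside. It was shorter in 4 of 5 libraries, and complete forks made up 20.7% of the forks in the gene and 30.6% of those outside over all libraries. The short-pulse replicate 3 went the other way, with 17.9% complete in the gene and 7.37% outside.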
